A study of Microtus ochrogaster with 40 samples.

Results

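Glutamate nuclei with UMIs of Slc30a3 or Neurod1 made up 6448 of the 185995 barcodes of the prairie vole nucleus accumbens that passed the filter, or 3.47%. A UMI (unique molecular identifier) stands for 1 captured RNA molecule, and a barcode for 1 droplet with a nucleus. The filter kept barcodes of 500 UMIs or more in which the 13 mitochondrial genes held no more than 5% of them. Such a barcode was counted here with at least 2 UMIs of Slc17a7, at least 1 UMI of Slc30a3 and Neurod1 together, and 0 UMIs of each of Hs3st4, Rxfp2, Drd1a and Drd2. These 7 genes chose the nuclei, so their levels below are a description and carry no test. The files list Slc30a3, Drd1a and Drd2 in capitals, and the nuclei are called Slc30a3/Neurod1 nuclei below.

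Nuclear RNA was measured in 40 prairie voles (Microtus ochrogaster), 1 droplet library per animal. Before the brains were taken, 11 females and 11 males had lived with an opposite-sex partner, called a mate, and 8 females and 10 males with a same-sex partner, called a peer. All 4 groups were housed this way for 16 days, and the labels name no genotype, treatment or age that sets the groups apart. Nuclei came from frozen tissue punches of the nucleus accumbens of each animal, so nuclei of neighbouring tissue that a punch took in are counted too.

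Slc17a7 encodes VGLUT1, the transporter that loads glutamate into synaptic vesicles of most cortical excitatory neurons. Slc30a3 encodes ZnT3, which loads zinc into the same vesicles, so that zinc is released together with glutamate. Neurod1 is a basic helix-loop-helix transcription factor of the development and upkeep of excitatory neurons. The nucleus accumbens is built mainly of spiny projection neurons that release GABA, and its glutamate input comes from neurons of the cortex, hippocampus, amygdala and thalamus.

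Most of the nuclei were chosen through Slc30a3. Of the 6448 nuclei, 4550 (70.6%) had UMIs of Slc30a3 and none of Neurod1, 913 (14.2%) had Neurod1 and no Slc30a3, and 985 (15.3%) had both. The rule was met narrowly by part of them: 693 nuclei (10.7%) had exactly 2 UMIs of Slc17a7, 5131 (79.6%) had 4 or more, and 3583 (55.6%) had a single UMI of the Slc30a3 and Neurod1 pair. Just outside the rule lay 619 barcodes with 1 UMI of Slc17a7 that met everything else, 500 with 1 UMI of Hs3st4 or Rxfp2, and 837 with 1 UMI of Drd1a or Drd2.

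Barcodes of another cell type met the rule at a low rate. Among 12631 barcodes gated as oligodendrocytes by at least 2 UMIs of Mog and Mag together, which should lack Slc17a7, 8.63% had at least 1 UMI of it, 3.36% had at least 2, and 0.554% (70 barcodes) met the whole rule. Those barcodes were shallower, with a median of 719 UMIs against 2896 in the Slc30a3/Neurod1 nuclei and 1555 in all barcodes that passed. Of the Slc30a3/Neurod1 nuclei, 248 (3.85%) were called doublets by simulated mixtures, against 4.09% of all barcodes that passed. The rate over all barcodes follows from an assumed 0.8% per 1000 barcodes and was not measured. The rule also leaves out mixtures that carry a UMI of Drd1a or Drd2. These rates thus do not show how many doublets the nuclei held.

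The label of these nuclei as glutamate neurons was checked on genes the rule did not use. Levels are given in CPM, UMIs of the gene per 1000000 UMIs summed over the nuclei of an animal, and were set beside those of spiny-gated nuclei, which had at least 2 UMIs of Drd1a and Drd2 together and none of Slc17a7. Tbr1, a transcription factor of cortical projection neurons, stood at 122 ± 27.5 CPM (SD, n = 39 animals) in the Slc30a3/Neurod1 nuclei and at 2.81 CPM in spiny-gated nuclei, and the vesicle protein gene Sv2b at 404 and 107 CPM. Camk2a, a calcium-dependent kinase, separated them less, with means of 1174 ± 126 and 684 CPM and UMIs in 89.6% and 75.4% of nuclei. Gad2, which makes GABA, stood at 56.1 ± 51.3 CPM in the Slc30a3/Neurod1 nuclei and at 932 CPM in spiny-gated nuclei. Slc17a6, the vesicular glutamate transporter typical of the thalamus, was low at 23.1 ± 12.2 CPM, and Gbx2, another thalamic gene, had no UMI, which allows up to 0.136 CPM (3 counts of the total, counting error only).

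The lists of dentate granule cells and of olfactory bulb projection neurons each held genes at or near 0 beside genes with higher levels, and no gene of the claustrum list was at 0. Of the dentate granule cell list, Prox1 and Dsp had means of 0.3 and 0.2 CPM, and C1ql2 and Zbtb20 of 13.1 and 35.6 CPM. Of the olfactory bulb projection neuron list, Tbx21 had no UMI, Eomes a mean of 0.5 CPM, and Lhx2, Reln and Cdhr1 means of 9.1, 23.2 and 145 CPM. The 6 genes of claustrum and endopiriform neurons ran from 12.9 CPM for Oprk1 to 120 CPM for Nr4a2, and of the 4 fitted against deep-layer-gated nuclei (described below) 3 were lower and none higher. Among all genes fitted in that comparison 25.4% were lower and 24.8% higher. Leaving aside Drd1a and Drd2, which the rule fixed at 0, all 9 spiny neuron markers were lower in the Slc30a3/Neurod1 nuclei than in spiny-gated nuclei, at 1.79% to 29.8% of the level there (median 3.72%), the highest being Meis2. Mbp, a myelin protein gene that the gate on Mog and Mag did not use, had a mean of 104.5 CPM here and of 7691 CPM in oligodendrocyte-gated nuclei. These markers matched the name glutamate neurons, and the counts do not say in which structure the nuclei lay.

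The 40 libraries held 194518 barcodes and 353673015 UMIs before filtering. The library of male mate 2 stood apart, because it alone had barcodes under 500 UMIs (6375) and its Slc30a3/Neurod1 nuclei had a median of 850 UMIs, where the animals' median was 3008. Pairs of libraries shared 2 to 85 barcode sequences, with a median of 28, and at most 2 sequences between Slc30a3/Neurod1 nuclei of a pair. An animal gave 9 to 481 Slc30a3/Neurod1 nuclei, with a median of 144. Male peer 5, with 9, fell under the minimum of 20 nuclei and is missing from the CPM values and fits on summed counts of Slc30a3/Neurod1 nuclei, except where stated.

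The share of Slc30a3/Neurod1 nuclei varied widely from animal to animal within each group. In female mates the lowest share of barcodes was 0.684%, the median 2.57% and the highest 5.11% (mean 2.81% ± 1.51, SD, n = 11). Female peers ran from 1.62% through a median of 4.00% to 6.36% (mean 3.88% ± 1.74, n = 8). The 4 groups overlapped over most of their ranges. Male mates ran from 1.38% through 3.28% to 6.49% (mean 3.53% ± 1.59, n = 11). Male peers held both extremes of the study, from 0.2002% in male peer 5 through a median of 3.33% to 8.40% in male peer 8 (mean 3.78% ± 2.37, n = 10).

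No difference in share between groups was larger than this spread. Averaged over the sexes, mates minus peers was -0.655 percentage points (two-sided permutation test with 100000 resamples, p = 0.257, adjusted p = 0.602 over 3 tests). Females minus males was -0.311 points (permutation p = 0.602). Subtracting the pairing difference of males from that of females gave -0.823 points (permutation p = 0.481). Within females mates minus peers was -1.07 points (exact permutation test, two-sided, p = 0.170), and within males -0.244 points (exact permutation p = 0.784). These p-values do not show that the shares were equal, since the SDs within groups were 1.51 to 2.37 points.

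Animals with many Slc30a3/Neurod1 nuclei had few spiny-gated ones. Across the 40 animals the 2 shares had a Pearson r of -0.664 (permutation p = 2e-05, adjusted p = 4e-05 over 2 relations) and a Spearman rho of -0.722 (permutation p = 1e-05, the smallest these resamples can give). Without male peer 8 and male mate 8, the 2 animals farthest from the median share, r was -0.611. Libraries carry a running number in the labels, and within the 4 blocks of 10 such numbers r was -0.489, -0.804, -0.857 and -0.749. Both shares are parts of the same whole, and the 2 gates exclude each other's genes, so the shares are not independent of each other. How much this added to r, and how much tissue of each kind a punch held, was not tested.

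**Figure D1:**
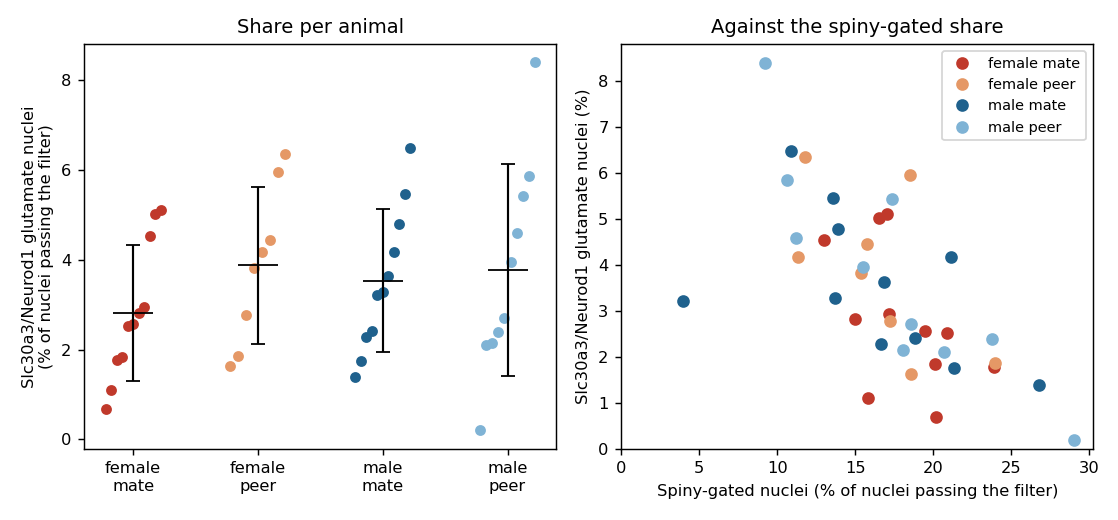
Left, the share of Slc30a3/Neurod1 glutamate nuclei in percent of barcodes that passed the filter, 1 point per animal, with the mean and SD of each group as bar and whiskers. Right, the same share (y axis) against the share of spiny-gated nuclei (x axis), both in percent; the points fall from upper left to lower right, with male peer 8 highest at 8.40% and male peer 5 lowest at 0.2002%.

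With the share of other glutamate nuclei the relation was weaker. Deep-layer-gated nuclei, which had at least 2 UMIs of Slc17a7 and a UMI of Hs3st4 or Rxfp2 but none of Slc30a3, Neurod1, Drd1a or Drd2, numbered 4495. Their share and that of the Slc30a3/Neurod1 nuclei had r = 0.253 (permutation p = 0.116) and rho = 0.323 (permutation p = 0.0428, adjusted p = 0.0428) over 40 animals. Without male peer 8 and male mate 8 r was 0.182 (permutation p = 0.273) and rho 0.267 (permutation p = 0.106). The rho thus did not stay under the threshold without those 2 animals, and leaving out others was not tried. Within the 4 blocks of label numbers r was 0.320, 0.222, 0.764 and -0.432. In 1 of the 4 blocks the sign was thus the opposite. As a share of all 24173 nuclei gated on Slc17a7, the Slc30a3/Neurod1 nuclei were 26.7%, and by animal from 11.9% in female mate 3 to 38.3% in male peer 8, apart from male peer 5, where 9 of only 17 such nuclei made 52.9%.

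Ndst4, Adcyap1 and Nrn1 were named as markers together with the rule, and they had been picked from these same data. Ndst4 is an N-deacetylase and N-sulfotransferase of heparan sulfate synthesis, Adcyap1 encodes the neuropeptide PACAP, and Nrn1 encodes neuritin, a membrane-bound growth factor induced by neuronal activity. Ndst4 was found in 32.5% of the Slc30a3/Neurod1 nuclei, in 13.0% of the 12531 other glutamate nuclei (gated on Slc17a7 and without any UMI of the other gate genes), in 1.36% of deep-layer-gated nuclei and in 1.05% of oligodendrocyte-gated barcodes. Nrn1 was found in 55.2%, 31.6%, 17.6% and 2.78% of them, in the same order, and Adcyap1 in 10.9%, 7.88%, 1.65% and 0.578%. With each nucleus thinned to 500 UMIs the shares in Slc30a3/Neurod1 nuclei and in other glutamate nuclei were 10.4% and 4.70% for Ndst4, 15.8% and 10.8% for Nrn1, and 2.26% and 1.98% for Adcyap1. All 3 genes were thus also found in other glutamate nuclei.

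Levels per animal placed the 3 genes differently. Nrn1 ranged from 206 CPM in male mate 2 through a median of 354 to 527 CPM in female peer 5, and in deep-layer-gated nuclei from 60.4 through 117 to 197 CPM, so that the lowest Slc30a3/Neurod1 value lay above the highest deep-layer-gated one. Adcyap1 ranged from 8.65 CPM in female mate 3 through 44.9 to 121 CPM in male mate 5, with a mean of 7.6 ± 7.3 CPM in deep-layer-gated nuclei. Adcyap1 did not set the Slc30a3/Neurod1 nuclei apart from all other glutamate nuclei, because the 12531 other glutamate nuclei stood at a mean of 49.5 CPM, against 47.5 ± 21.0 CPM.

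Ndst4 was the most uneven of the 3. It ranged from 0 CPM in female mate 3, where 115665 UMIs allow up to 25.9 CPM, through a median of 185 CPM to 731 CPM in female peer 6, whose next lower group member had 326 CPM. Its coefficient of variation (SD over mean) across the 39 animals was 62.9%, where counting error alone gives 10.7% and the median gene among 5301 with at least 50 CPM had 22.1%. By this excess over counting error it ranked at place 15 of those genes. The ranges of the 4 groups overlapped, with means of 204 ± 111 CPM in female mates, 251 ± 214 in female peers, 225 ± 126 in male mates and 242 ± 145 in male peers. In edgeR mates minus peers was -0.19 ± 0.24 (log2 fold change ± SE) with an adjusted p of 0.832.

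**Figure D2:**
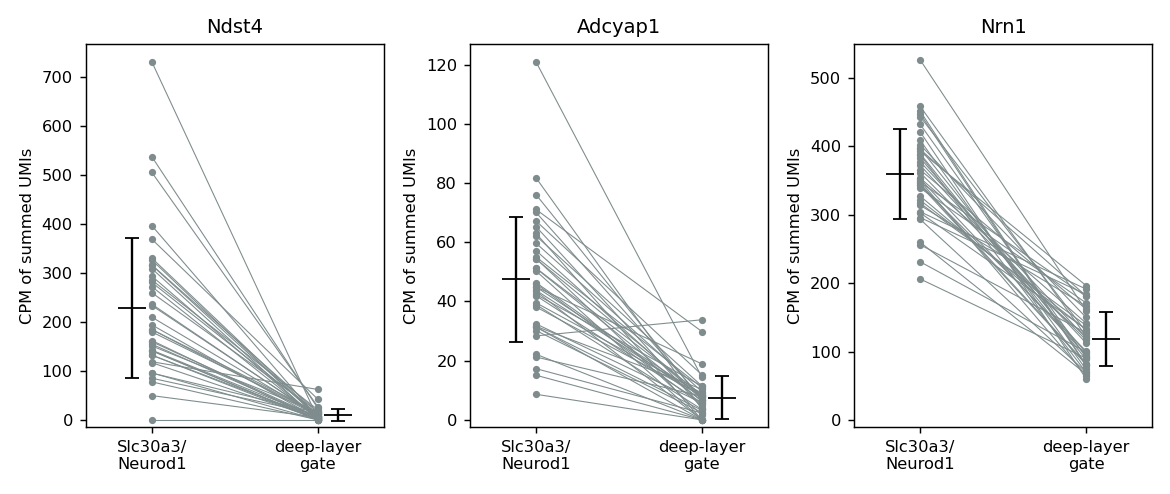
Level of Ndst4, Adcyap1 and Nrn1 in CPM of summed UMIs (y axes) in Slc30a3/Neurod1 nuclei and deep-layer-gated nuclei of the same animal; each line joins the values of 1 of 39 animals, and the bars beside the points are the mean and SD. For Nrn1 the lowest Slc30a3/Neurod1 value, 206 CPM, lies above the highest deep-layer-gated value, 197 CPM, while Ndst4 spreads from 0 to 731 CPM.

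Other genes near the top of the ranking by variation between animals were named after their values were seen. Sst, Gad1, Gad2 and Penk of GABA neurons, and Ptgds and Mbp of oligodendrocytes, were all higher in other gates than in the Slc30a3/Neurod1 nuclei. Ptgds, for example, had a mean of 109.5 CPM here and of 11284 CPM in oligodendrocyte-gated nuclei. Btg2, Npas4 and Fos, which neurons induce with activity, had means of 97.8, 177 and 107 CPM. Crym, a thyroid hormone binding protein of deep cortical layers, varied from 11.1 CPM in male mate 3 to 444 CPM in male peer 2.

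The Slc30a3/Neurod1 nuclei were set against the deep-layer-gated nuclei of the same 39 animals. The 2 kinds exclude each other by rule, so the differences describe what the rule separated and are no test of it. Of 7518 genes fitted, 1865 (24.8%) were higher and 1909 (25.4%) lower in Slc30a3/Neurod1 nuclei at an adjusted p under 0.05 in edgeR with the animal as a block. At least 2-fold differences numbered 217 and 150. Genes of the rule were left out.

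Genes of the upper cortical layers were higher in the Slc30a3/Neurod1 nuclei than in deep-layer-gated nuclei. In that list 7 of 9 genes were fitted and 6 were higher, where 24.8% of all fitted genes were. The list had a median log2 fold change of 1.58, where the median of all fitted genes was -0.01. Cux2, a homeobox factor of upper-layer neurons, had a mean of 97.6 ± 29.0 CPM against 24.0 ± 17.1 CPM and was higher in 39 of 39 animals. Lamp5, a membrane protein of upper layers, stood at 272 ± 85.5 against 79.9 ± 35.6 CPM, also higher in 39 of 39 animals. Rasgrf2, an exchange factor for Ras that marks upper layers, stood at 48.0 ± 19.5 against 5.9 ± 5.6 CPM. Cux1 (1.03 ± 0.08, log2 fold change ± SE), Calb1 (1.58 ± 0.11) and Unc5d (1.32 ± 0.11) were also higher, while Mdga1 had means of 29.0 and 32.3 CPM.

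The deep-layer list lay the other way. Of its 10 fitted genes 9 were lower in Slc30a3/Neurod1 nuclei and none higher, with a median log2 fold change of -2.48. Of all fitted genes 25.4% were lower and 24.8% higher. Fezf2, which specifies subcortical projection neurons, stood at 32.8 ± 21.0 CPM against 143 ± 35.3 CPM, and Tle4, a corepressor of corticothalamic neurons, at 8.92 ± 4.71 against 67.4 ± 21.5 CPM. Syt6, a synaptotagmin of deep layers, stood at 11.8 ± 9.4 against 201 ± 49.6 CPM. Nxph4 and Cplx3, which mark the deepest cortical layer, stood at 3.0 and 1.8 CPM against 128 and 58.9 CPM. Each of these 5 genes was lower in 39 of 39 animals, and Etv1 of the same list had means of 57.0 and 50.7 CPM.

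Of the 12 genes with the largest fold in favour of Slc30a3/Neurod1 nuclei, Ndst4 led with a log2 fold change of 4.54 ± 0.15, followed by Plk5 (3.92 ± 0.17), a member of the polo-like kinase family, and Fat4 (3.71 ± 0.19), a giant atypical cadherin. Syt17 stood at 120 ± 26.9 against 12.5 ± 9.1 CPM, and Plxnd1, a receptor for semaphorins, at 79.5 ± 30.8 against 10.0 ± 8.2 CPM. The T-type calcium channel gene Cacna1h (2.89 ± 0.15) and the potassium channel subunit gene Kcng3 (2.89 ± 0.17) were also among them. The other 5 were Fsip2, Rasgrf2, Tmem44, Tcap and Disp3.

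On the lower side Adamts18, a secreted metalloprotease, led with a log2 fold change of -5.42 ± 0.15, from 75.5 ± 28.6 CPM in deep-layer-gated to 1.6 ± 2.5 CPM in Slc30a3/Neurod1 nuclei. Nxph4 (-5.18 ± 0.14) and Nxph3 (-4.37 ± 0.10), secreted ligands of neurexins, were also on this side. Ccn2, a matrix protein of the deepest cortical layer, stood at 13.7 ± 9.1 against 287 ± 105 CPM. Col5a1, a collagen gene, stood at 28.8 ± 13.5 against 438 ± 241 CPM. The remaining genes on this side were Cplx3, Vwc2, Syt6, Nkain4, Thsd7b, Cntnap4 and Rai14. In all 12 the Slc30a3/Neurod1 level was below the deep-layer-gated level in 39 of 39 animals.

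**Figure D3:**
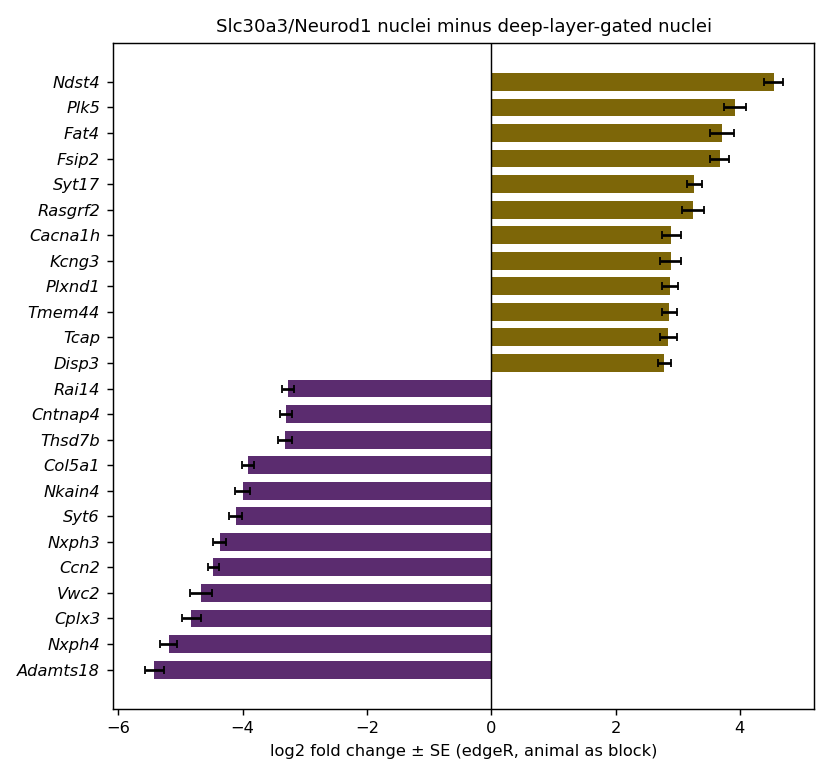
Log2 fold change between Slc30a3/Neurod1 nuclei and deep-layer-gated nuclei of the same 39 animals (x axis, bars, with SE as whiskers) for the 12 genes with the largest difference in each direction. Ndst4 has the longest bar on the higher side at 4.54 and Adamts18 on the lower side at -5.42.

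Genes of glutamate release and its receptors were called in both directions, where 24.8% of all fitted genes were higher and 25.4% lower. Of 13 fitted release genes 5 were higher and 4 lower, and of 17 receptor genes 9 were higher and 5 lower, with median log2 fold changes of 0.05 and 0.27. Grin2a, an NMDA receptor subunit, stood at 265 ± 51.6 against 124 ± 46.7 CPM. The kainate receptor subunit Grik3 (21.3 ± 10.5 against 68.8 ± 15.3 CPM) and the metabotropic receptor Grm3 (60.2 ± 24.2 against 112 ± 26.4 CPM) were lower. Slc1a2, a glutamate uptake transporter best known from astrocytes, had 498 ± 105 CPM in Slc30a3/Neurod1 and 1409 ± 216 CPM in deep-layer-gated nuclei.

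Heparan sulfate genes split evenly. Of 16 fitted genes 7 were higher and 7 lower, with a median of -0.06. Of all fitted genes 24.8% were higher and 25.4% lower. Among the higher ones was Ndst4, which had been picked as a marker from these same data. Next to Ndst4, its relative Ndst3 stood at 164 ± 44.2 against 53.6 ± 20.6 CPM, and the sulfotransferase gene Hs3st1 at 74.6 ± 30.2 against 22.2 ± 11.9 CPM. Lower were Sulf1 (25.2 ± 16.0 against 111 ± 33.9 CPM) and Sulf2 (27.7 ± 12.7 against 112 ± 29.7 CPM), which trim sulfate groups outside the cell, and Hs3st2 (13.9 ± 6.5 against 46.3 ± 14.5 CPM).

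Of 10 fitted zinc genes other than Slc30a3, 3 were higher and 2 lower, which is near the share of all fitted genes (24.8% and 25.4%), and the median was 0.04. The largest difference named here was that of Slc39a10, a zinc importer, at 784 ± 105 against 491 ± 71.4 CPM. Among Neurod1 relatives and their partners 2 of 5 were higher and 2 lower. Neurod6 (94.7 ± 39.1 against 121 ± 45.9 CPM) and Neurod2 (28.4 ± 8.7 against 38.4 ± 17.3 CPM) lay on the lower side, and Id2 and Tcf12 on the higher. Of the 2 fitted PACAP receptor genes, Vipr1 was higher (117 ± 29.1 against 76.3 ± 31.2 CPM) and Adcyap1r1, the selective receptor, lower (140 ± 46.1 against 215 ± 63.2 CPM).

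Genes that neurons induce with activity were mostly higher in the Slc30a3/Neurod1 nuclei than in deep-layer-gated nuclei. Of 15 fitted genes 13 were higher and 1 lower, with a median log2 fold change of 0.52. Of all fitted genes 24.8% were higher and 25.4% lower. The list holds Nrn1, which had been picked as a marker from these same data. Egr4, a zinc finger factor, stood at 115 ± 48.9 against 45.3 ± 26.6 CPM, Bdnf, a neurotrophin, at 47.3 ± 17.9 against 20.0 ± 11.9 CPM, and Nptx2, a synaptic pentraxin, at 278 ± 133 against 157 ± 58.3 CPM. The exception was the nuclear receptor gene Nr4a3, at 53.4 ± 32.2 against 82.0 ± 36.1 CPM.

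Among receptors and peptides studied in pair bonding 8 were fitted, of which 5 were higher and 1 lower. Of all fitted genes 24.8% were higher and 25.4% lower. The cannabinoid receptor gene Cnr1 stood at 412 ± 82.5 CPM against 89.1 ± 35.8 CPM and was higher in 39 of 39 animals. Crhr1, a receptor for corticotropin-releasing hormone, stood at 38.6 ± 13.0 against 5.9 ± 6.3 CPM, and the serotonin receptor gene Htr2c at 54.9 ± 30.7 against 13.5 ± 10.3 CPM. The progesterone receptor gene Pgr stood at 37.4 ± 12.6 against 21.3 ± 6.9 CPM, and Bdnf, on this list too, was the fifth. The lower gene was Oprd1, an opioid receptor gene, at 23.4 ± 10.3 against 30.1 ± 13.7 CPM. Htr2a (128 ± 41.1 against 119 ± 36.6 CPM) and Ntrk2 (158 ± 25.6 against 155 ± 39.3 CPM) did not pass the test. The 5 higher genes were also found in the other glutamate nuclei. With nuclei thinned to 500 UMIs, Cnr1 was found in 17.4% of Slc30a3/Neurod1 and 13.2% of other glutamate nuclei. In the same order the shares were 1.94% and 1.17% for Crhr1, and 2.45% and 1.98% for Htr2c. Those of Pgr (1.88% and 1.82%) and Bdnf (1.99% and 2.07%) lay close together.

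The nuclei were not alike among themselves. Of the animals' Slc30a3/Neurod1 nuclei, those with a Neurod1 UMI made up from 17.4% in female mate 4 to 47.0% in female peer 3, with a median of 30.3%, and those with a Slc30a3 UMI from 73.6% in male peer 2 to 92.9% in female peer 4. Nuclei with Neurod1 but no Slc30a3 were compared with nuclei with Slc30a3 but no Neurod1 in the 22 animals that had at least 20 of each. Their median depths were 2817 and 2788.5 UMIs, against 3508 in nuclei with both genes. A nucleus with a single UMI of a gate gene can fall on either side by sampling, so the 2 sets are mixed to an extent that was not measured.

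Of 5306 genes tested, which exclude those of the rule, 88 (1.66%) were higher and 102 (1.92%) lower in Neurod1-only nuclei at an adjusted p under 0.05 in edgeR with the animal as a block. At least 2-fold higher were 5 genes, and none was 2-fold lower. With scaling factors taken from all genes before the filter on low counts, a choice tried after seeing the data, the split was 48 higher and 374 lower, so the balance of directions depends on the scaling. Thinning each nucleus to 500 UMIs left 547 genes to test, of which 5 were called.

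Cdh7, a cadherin of cell adhesion, differed most. It ranged in Neurod1-only nuclei from 23.3 through a median of 108 to 313 CPM, against a mean of 25.3 ± 11.9 CPM in Slc30a3-only nuclei, and was higher in 22 of 22 animals (log2 fold change 1.98 ± 0.16, edgeR adjusted p = 4.56e-17). Kcnn2, which encodes the calcium-activated potassium channel SK2, had 557 ± 210 CPM against 261 ± 62.5 CPM and was also higher in 22 of 22 animals (1.07 ± 0.08, adjusted p = 6.36e-19). Kcnn2 was one of the 5 genes called after thinning. Parm1 had 147 ± 87.1 against 66.7 ± 30.4 CPM, higher in 21 of 22 animals, and Gm19410 had 218 ± 100.4 against 91.3 ± 48.9 CPM, higher in 21 of 22.

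Of 13 genes of the deep-layer list 3 could be tested, and all 3 were called higher in Neurod1-only nuclei, where 1.66% of all tested genes were. The others were not analysed here, belong to the rule or fell under the filter on low counts. Among these, Fezf2 had UMIs in 16.5% of Neurod1-only and 4.68% of Slc30a3-only nuclei. Sulf1 lay the other way, with 4.05% and 6.88%. Etv1, an ETS factor of deep layers, had 108 ± 76.9 against 51.2 ± 26.2 CPM (1.01 ± 0.17, adjusted p = 3.18e-05), higher in 17 of 22 animals. Crym had 142 ± 110 against 91.3 ± 80.0 CPM (0.67 ± 0.14), and Bcl11b, the factor also called Ctip2, 128 ± 64.1 against 87.5 ± 25.2 CPM (0.52 ± 0.12). Of 4 tested upper-layer genes, Cux2 (0.41 ± 0.12, adjusted p = 0.0392) and Lamp5 (0.36 ± 0.09) were also higher and none was lower. The Cux2 call was lost in DESeq2 (adjusted p = 0.104), without called doublets and with at least 10 nuclei per animal.

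Nrn1 led the genes that were lower in Neurod1-only nuclei together with Plxnd1. It had 203 ± 95.3 CPM against 372 ± 66.4 CPM and was lower in 20 of 22 animals (-0.90 ± 0.09, edgeR adjusted p = 4.47e-12). Plxnd1 had 39.0 ± 25.6 against 77.5 ± 30.8 CPM (-0.96 ± 0.17), and Grm3 31.5 ± 18.5 against 60.7 ± 18.8 CPM (-0.88 ± 0.17). Of 11 tested activity-regulated genes 3 were lower, Nrn1, Nptx2 (-0.40 ± 0.10) and Egr1 (-0.34 ± 0.08), and 1 was higher, Vgf (0.30 ± 0.08). Among all tested genes 1.92% were lower and 1.66% higher. Nrn1 had been picked as a marker from these same data. The list's median was -0.29, and that of all genes tested 0.01.

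Ndst4 and Adcyap1 did not differ between the 2 sets beyond the threshold. Ndst4 had 258 ± 199 CPM in Neurod1-only and 278 ± 162 CPM in Slc30a3-only nuclei (-0.14 ± 0.10, edgeR adjusted p = 0.600), and Adcyap1 62.9 ± 45.5 and 49.5 ± 24.7 CPM (0.46 ± 0.17, adjusted p = 0.127). Ndst3 was higher in Neurod1-only nuclei (259 ± 91.9 against 156 ± 56.9 CPM), and Extl1, a glycosyltransferase of heparan sulfate, lower (72.7 ± 29.0 against 105 ± 28.0 CPM). Of 13 tested glutamate receptor genes, Grin3a (0.76 ± 0.16) and Grik2 (0.53 ± 0.12) were higher and Grm3 lower. Beside this list and those that follow, 1.66% of all tested genes were higher and 1.92% lower. Slc39a10 (-0.30 ± 0.06) was the called one of 5 zinc genes, the syntaxin gene Stx1a (-0.39 ± 0.09) and the synapsin gene Syn2 (-0.22 ± 0.06) were the called ones of 12 release genes, and Htr2a was lower (94.5 ± 50.1 against 128 ± 43.0 CPM).

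**Figure D4:**
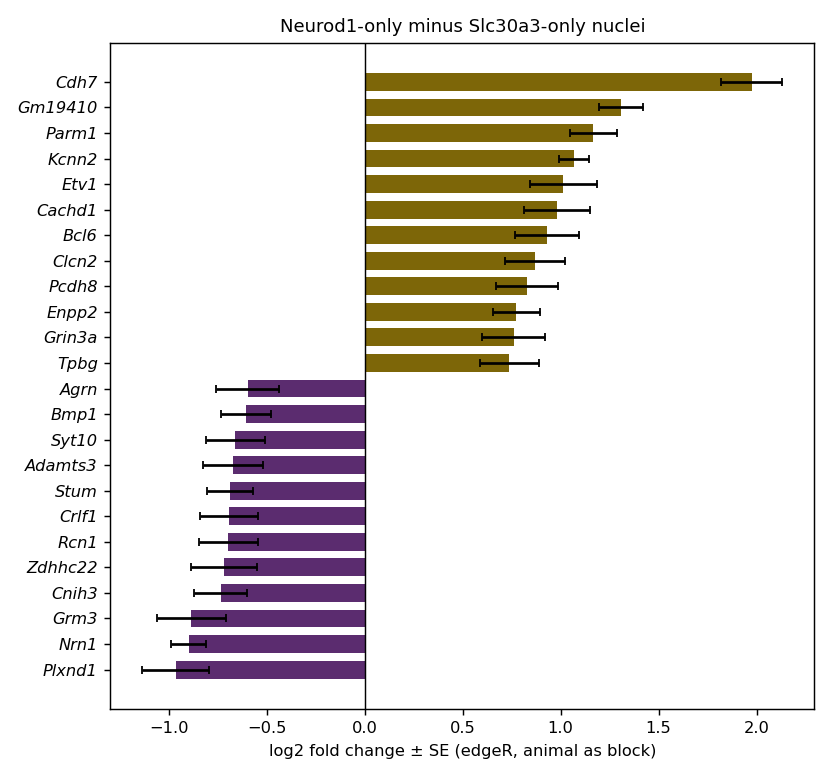
Log2 fold change between Neurod1-only and Slc30a3-only nuclei of the same 22 animals (x axis, bars, with SE as whiskers) for the 12 called genes with the largest difference in each direction. Cdh7 has the longest bar at 1.98 and Plxnd1 the longest on the lower side at -0.96.

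The comparison of mates with peers asks whether the type of partner goes with gene expression in these nuclei. UMIs were summed per animal, so that the animal was the replicate, and 8702 genes were tested in 22 mates and 17 peers. No gene passed an adjusted p under 0.05 in edgeR (0%), while 892 (10.25%) had an unadjusted p under 0.05 and DESeq2 called 1 gene, Plcl2. That share was 4.90% for sex, 2.36% for the interaction, and 7.33% and 4.19% for pairing within females and within males. Animals that had lived together may not be independent of each other, and the labels used here do not name partners.

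The 3 genes with the lowest p were Sst, Plcl2 and Zfp318. Plcl2, a phospholipase C-like protein without enzyme activity, ranged in mates from 61.0 through a median of 118 to 156 CPM and in peers from 37.2 through 76.9 to 155 CPM. Its group means were 123 ± 22.1 CPM in female mates, 85.2 ± 35.7 in female peers, 117 ± 22.3 in male mates and 87.7 ± 14.9 in male peers, so that the groups overlapped but mates lay higher in both sexes. The log2 fold change was 0.47 ± 0.10 with an edgeR adjusted p of 0.0869, which ran from 0.0064 without female peer 4 to 0.346 without female peer 2. In DESeq2 the adjusted p was 0.00975.

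Zfp318, a zinc finger protein, ranged in mates from 74.2 through 110.2 to 157 CPM and in peers from 57.2 through 82.6 to 97.9 CPM (0.37 ± 0.08, edgeR adjusted p = 0.126). Its mates and peers overlapped between 74.2 and 97.9 CPM. Without any 1 animal the adjusted p ran from 0.0685 to 0.366.

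Sst, the interneuron peptide somatostatin, had a lower mean in mates that did not pass the threshold. It had 26.1 ± 17.6 CPM in mates and 93.1 ± 132 CPM in peers (-1.94 ± 0.39, edgeR adjusted p = 0.0683). Its highest values were 535 CPM in female peer 2 and 225 CPM in male peer 4, and the medians were 24.4 and 39.3 CPM. Without female peer 2 the log2 fold change was -1.30 and the adjusted p 0.455, and without female peer 3 the adjusted p was 0.0164. With no filter on low counts it was 0.0207.

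Of the 6448 nuclei 367 (5.69%) had a UMI of Sst, and 19 nuclei with at least 10 UMIs held 1207 of the 1700 Sst UMIs (71.0%). Of those 19 nuclei 3 came from mates and 16 from peers, 18 also had a UMI of Gad1 or Gad2, and 1 was called a doublet. They held 12.1% of the Sst UMIs of mates and 83.9% of those of peers. Over all 40 animals, male peer 5 included, Sst averaged 26.1 ± 17.6 CPM in mates and 87.9 ± 130 CPM in peers, and in the nuclei other than these 19 the order was the opposite, at 23.6 ± 16.6 and 16.8 ± 8.6 CPM. Since the 19 nuclei were picked by their Sst UMIs, the last pair of values is a description and no test. The 11 GABA interneuron markers summed to a median of 152 CPM (36.5 to 720) in mates and 173 CPM (48.9 to 1141) in peers, and without Sst and Npy to 112 CPM (36.5 to 695) and 118 CPM (37.3 to 710). None of these markers was at 0 in all animals. With all nuclei that had a Gad1 or Gad2 UMI left out, which was tried after seeing the data, no gene was called for pairing and the lowest adjusted p was 0.206.

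The sexes differed in 2 of 8702 genes (0.0230%), both higher in the 19 females than in the 20 males. Kdm5c, a histone demethylase gene that is X-linked in other mammals, ranged in females from 154 through a median of 190 to 288 CPM and in males from 94.2 through 130.2 to 190 CPM (0.53 ± 0.08, edgeR adjusted p = 8.89e-05). The sexes overlapped between 154 and 190 CPM, and the call held without any 1 of the 39 animals. Kdm6a, another histone demethylase gene that is X-linked in other mammals, had 213 ± 34.9 CPM in females and 164 ± 26.4 CPM in males (0.37 ± 0.08, adjusted p = 0.0448). Its call held in 15 of 39 fits that left out 1 animal, with adjusted p from 0.0111 to 0.171. Several settings given in the closing section called 1 gene for sex instead of 2.

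**Figure D5:**
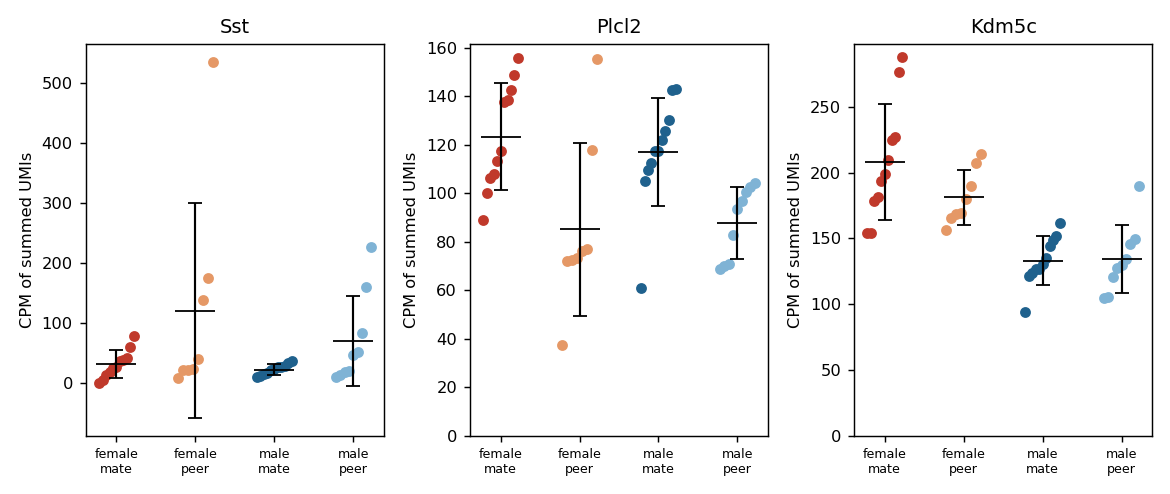
CPM of summed UMIs (y axes) per animal in the 4 groups, with mean and SD as bar and whiskers, for Sst, Plcl2 and Kdm5c in Slc30a3/Neurod1 nuclei; 39 animals are shown. Peer values of Sst reach 535 CPM, Plcl2 lies higher in mates of both sexes, and Kdm5c lies higher in females.

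For the interaction, in which the male mate-peer difference is taken from the female one, no gene was called (0%), 205 had an unadjusted p under 0.05, the lowest adjusted p was 1.00, and DESeq2 called none. The lowest p belonged to Aarsd1 (-0.57 ± 0.17), Gpr19 (0.76 ± 0.24) and Kbtbd4 (0.59 ± 0.19). Within females no gene was called (0%, 638 at an unadjusted p under 0.05, DESeq2 0), with ENSMOCG00000011394 (-0.85), ENSMOCG00000001856 (-0.73) and Sst (-2.09 ± 0.54) at the lowest p. Within males none was called either (0%, 365 at an unadjusted p under 0.05, DESeq2 0), with Olfml2b (-0.87 ± 0.21), Rbm24 (0.86 ± 0.23) and Hif1an (0.48 ± 0.14) at the lowest p.

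No gene of the 8 pathway lists passed the test in any of these comparisons, where nothing is read from the genes of the rule that some of the lists hold. The list that leaned most was that of activity-regulated genes: within females all 16 tested genes had a log2 fold change above 0 (median 0.43, 5 at an unadjusted p under 0.05), while 49.3% of all genes did. Within males 6 of 16 lay above 0, with a median of -0.09. For the interaction 14 of 16 lay above 0 (median 0.44, 5 at an unadjusted p under 0.05), against 49.0% of all genes. Arc, a synaptic capsid-like protein gene, had 700 ± 220 CPM in female mates and 375 ± 229 CPM in female peers (0.91 ± 0.34, edgeR adjusted p = 0.630), and 426 ± 324 and 453 ± 229 CPM in male mates and peers. Fos had 138 ± 65.6 and 95.9 ± 71.4 CPM in females, and 70.8 ± 42.1 and 124 ± 72.5 CPM in males (interaction 1.34 ± 0.47, adjusted p = 1.00). These genes vary together within an animal, so the 16 are not independent of each other, and none of the differences passed the threshold.

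Slc17a7, which chose the nuclei, had a mean of 2172 CPM over 39 animals. Nrn1 had 356 ± 61.4 CPM in mates and 364 ± 72.6 CPM in peers, and Adcyap1 47.7 ± 25.2 and 47.1 ± 14.8 CPM. Cnr1 was at -0.02 ± 0.09 for pairing and at -0.22 ± 0.09 for females minus males, with adjusted p of 0.990 and 0.937. The glutamate receptor and heparan sulfate lists had medians of 0.07 and 0.05 for pairing, where the median of all genes was 0.00.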

How the data were processed

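Single-nucleus RNA of the nucleus accumbens of 40 prairie voles was analysed from the deposited raw UMI counts per gene and barcode, which the authors made with Cell Ranger 3.1.0, per the submitters' processing notes; genome build and annotation are not given in the sources used here. The nuclei and gene lists were chosen with earlier results of these data known. Counts were summed per animal (at least 20 nuclei, which left out male peer 5). edgeR 4.0.16 in R 4.3.3 was run with quasi-likelihood tests, TMM factors from genes that passed its filter on low counts, 1 mean per group or the animal as block, and Benjamini-Hochberg adjustment over all genes tested at 0.05. DESeq2 1.42.0 and the settings of the closing section were alternatives. Shares were compared by permutation tests within strata. Doublets were called at an assumed 0.8% per 1000 barcodes. Named genes were the 5 or fewer called genes of lowest p in a group comparison (3 genes where it called none), the 12 called genes of at least 20 CPM with the largest fold in each direction per gate comparison, and listed genes; others (the most variable genes, Slc1a2) were chosen after their values were seen. Of 231 listed genes 213 were used and 18 were not analysed here. Results of 1 gene are not reported here. On simulated data the group fit recovered 98.0% of 2-fold and 65.6% of 1.5-fold genes, with 4.85% of calls false, and the gate fit 100% and 75.0%, with 3.59% false. Passing barcodes per library had median depths from 662 to 2201 UMIs. The p-values of group comparisons set a difference against the spread between animals of a group. Those of gate comparisons set it against how the gate difference varied from animal to animal.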

Additional observations from a re-analysis of the deposited data

Results flagged for a closer look

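Extreme values were looked for in 92 sets of 1 measure (the level of a gene, a share of nuclei or a depth) and 1 group of peers. The peers were 8 females and 10 males (9 males for gene levels). The highest or lowest value was set against its nearest neighbour. Part of the genes, among them Sst, Gad1, Gad2, Crym and Ndst4, were picked with these data known, so the count is a description and no test. In all, 10 values stood apart, where chance gives about 1 in 20 for normal values picked beforehand. In female peers these were Ndst4 in female peer 6 (731 CPM, next 326), Sst and Npy in female peer 2 (535 CPM, next 175; 327 CPM, next 65.7), Gad1 and Gad2 in female peer 1 (265 CPM, next 89.9; 285 CPM, next 115), and Egr3 in female peer 3 (172 CPM, next 101). In male peers these were Crym and ENSMOCG00000001856 in male peer 2 (444 CPM, next 161; 76.6 CPM, next 51.8), Junb in male peer 9 (57.4 CPM, next 38.9) and Nr4a3 in male peer 7 (70.8 CPM, next 43.9). Groups of 11 animals were not examined in this way, so mates could not appear here. Sst, Npy, Gad1 and Gad2 are genes of GABA interneurons, and their part in the result for Sst was not tested beyond the values given above. All values are levels summed over the Slc30a3/Neurod1 nuclei of an animal.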

How the results depend on the processing

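The 3 share comparisons kept their direction and stayed above the threshold in all 24 alternatives and in all 120 fits without 1 animal. For pairing, DESeq2 called 1 gene and no filter on low counts called 1, against 0; without 1 animal the count ran from 0 to 2. For sex, no filter on low counts, at least 50 nuclei per animal, blocks of label numbers, doublets left out and Slc17a7 of at least 3 UMIs each called 1 gene, against 2; without 1 animal the count ran from 1 to 3. Interaction and pairing within each sex called 0 genes throughout. Between Slc30a3/Neurod1 and deep-layer-gated nuclei, thinning to 500 UMIs called 717 genes, against 3774, with 1570 tested, and the others called 3023 (no animal block) to 5131 (no filter). Between Neurod1-only and Slc30a3-only nuclei, against 190, no filter called 284, at least 10 nuclei 307, no animal block 58, doublets left out 125, thinning 5 (547 tested) and scaling factors from all genes 422. The cause of the changes was not tested, apart from the fewer genes tested after thinning. No paired analysis of the groups was made, because the labels do not name partners and replicates are numbered in the order of the labels. In that order each odd running number and the next even one are a female and a male mate, or peers of the same sex. Whether such neighbours had lived together is not stated in the labels, and the group comparisons treated them as independent animals. Both comparisons of gates used the animal as a block. Animals with few nuclei, and nuclei with single UMIs of the gate genes, limit the precision.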
